A study of Rattus norvegicus with 6 samples.

Results

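The methionine cycle, transsulfuration and the path from cysteine to taurine were followed through 9 genes, Mat1a, Gnmt, Ahcy, Bhmt, Bhmt2, Cbs, Cth, Cdo1 and Csad. They were chosen by gene symbol from a table of 32930 gene rows. Each symbol had 1 row, and all 9 were among the 18455 rows with enough counts to be tested. The libraries were made from liver RNA of animals kept on high-fat feed over 12 weeks, and the study asked how a herbal formula acts in dyslipidaemia. The HFD group (3 libraries) received the diet with 0.5% CMC-Na, the carboxymethyl cellulose vehicle. The HTG group (3 libraries) received the same diet with Huazhuo Tiaozhi granule (HTG), a formula of several herbs, although the treatment label of these samples reads HCG where their titles read HTG. No vehicle is listed for the HTG samples. The study's methods for rats describe its drugs as gavaged in the same vehicle, over the later weeks of feeding. The labels name Rattus norvegicus, the study's RNA-seq text names mice, and the gene rows are mouse genes, so the species cannot be settled here. Age and strain are not given in the labels, and no group on a normal diet was analysed here.

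The methionine cycle turns methionine into S-adenosylmethionine, the methyl donor of the cell, and then through S-adenosylhomocysteine into homocysteine. Homocysteine is either methylated back to methionine or passed through transsulfuration to cysteine, which feeds glutathione and taurine. The liver carries most of this traffic, and several of the enzymes are known as markers of the differentiated hepatocyte.

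The deposited counts summed to 65353298, 70910444 and 69907057 in HFD libraries 1 to 3 and to 78549295, 90563477 and 50648778 in HTG libraries 1 to 3. The hepatocyte markers were abundant in every library, with Alb, the gene of serum albumin, as the most abundant. The 9 genes together took 1.37%, 1.33% and 1.46% of all counts in the HFD libraries. They took 1.09%, 0.592% and 0.623% in the HTG libraries. Their summed normalised level, in CPM (counts scaled to the depth of each library, with TMM factors between libraries), was 13820 ± 617 in the HFD group and 7741 ± 2894 in the HTG group (mean ± standard deviation, n = 3). Every HTG library was lower than every HFD library (exact permutation p = 0.1, the smallest that 3 against 3 allows), and HTG library 1 lay nearest to the HFD group. Mat1a, Bhmt and Ahcy made up most of the sum, with means of 4655, 2909 and 2340.5 CPM in the HFD group. The sum therefore says little of the less abundant genes, which are given singly below. Because the tissue was sequenced in bulk, fewer cells of a type and less RNA per cell cannot be told apart.

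HTG library 1 held the highest CPM of the HTG group in 9 of the 9 genes, whereas over all tested genes it was the highest in 35.1% and the lowest in 34.8%. Across all tested genes it correlated with HTG libraries 2 and 3 at r = 0.979 and 0.978, as these did with each other (0.979). With HFD libraries 1 to 3 it correlated at 0.982, 0.9755 and 0.9683 (Pearson, across genes, which are not independent replicates). Without HTG library 1 the log2 fold changes (HTG minus HFD) were -1.33 for Mat1a, -2.11 for Gnmt, -1.19 for Ahcy, -1.30 for Bhmt, -0.30 for Bhmt2, -0.54 for Cbs, -1.77 for Cth, -0.26 for Cdo1 and -3.22 for Csad. Each was lower than with all 6 libraries, as given for each gene below. This follows from HTG library 1 holding the highest CPM of its group in all 9 genes, so it is not a separate result.

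None of the 9 genes was called at an adjusted p under 0.05 in edgeR's quasi-likelihood test, where 0.0108% of all tested genes were called. At the wider threshold of an adjusted p under 0.1, 2 of the 9 (Cth and Gnmt) were lower and 0 were higher, against 5.43% and 5.41% of all tested genes. Without HTG library 1 there were 5 of the 9, and 13.4% of all genes tested passed. With any other library left out there were 0 of the 9, but at most 2.15% of all genes passed, and 0 genes did when library 3 of the HFD group or either library 2 or 3 of the HTG group was left out, so these counts say little of the 9 genes themselves. At an unadjusted p under 0.05, 5 of the 9 (Cth, Gnmt, Mat1a, Ahcy and Csad) were lower and 0 were higher, against 12.4% and 12.3%. The HTG and HFD libraries did not overlap for 4 of the 9 genes (Cth, Gnmt, Mat1a and Ahcy), all lower. The groups did not overlap for 32.1% of all tested genes, and 15.5% were lower in this way. DESeq2 on all rows called the same 4 genes lower at an adjusted p under 0.05, where it called 5.81% of the genes it tested lower. On the rows that edgeR tested, a choice made after seeing the data, DESeq2 called these 4 as well, against 7.55%. The median log2 fold change (HTG minus HFD) was -0.85 over the 9 genes and 0.03 over all tested genes, and 8 of the 9 had a fitted value below 0, against 48.4% of all.

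**Figure D1:**
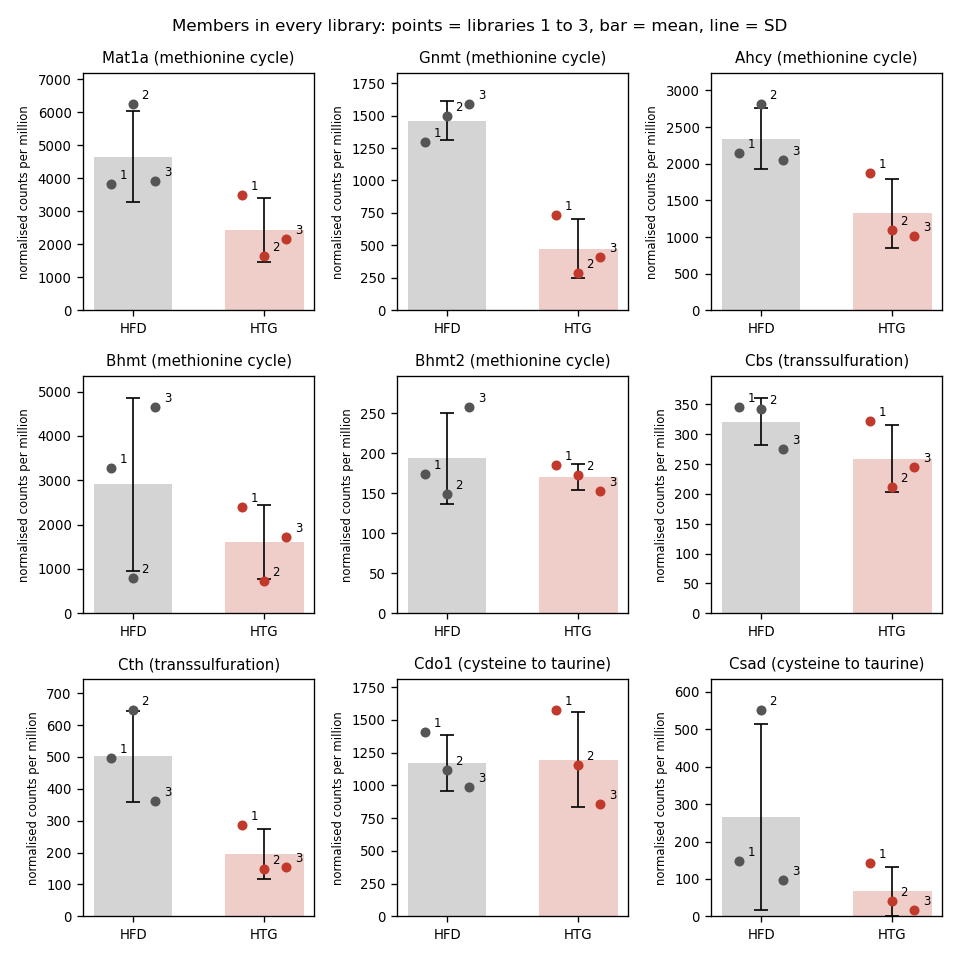
Normalised CPM (vertical axes, each from 0) of the 9 genes in HFD and HTG libraries. Points are single libraries with their numbers, bars are group means and lines are standard deviations (n = 3). For Cth the 3 HTG libraries sit between 148 and 288 CPM, all below the HFD libraries, which start at 360.5 CPM.

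Mat1a makes S-adenosylmethionine from methionine and ATP and is the form of the enzyme typical of adult liver. HFD libraries 1 to 3 held 3809, 6246 and 3912 CPM. In HTG libraries 1 to 3 it was measured at 3495, 1637 and 2168 CPM. HFD library 2 was far above the other libraries, and the groups did not overlap, though HTG library 1 came close to HFD library 1. The log2 fold change was -0.94 (standard error 0.35, unadjusted p = 0.0275, adjusted p = 0.149 in edgeR), which did not pass the threshold. Leaving out HFD library 2 took it to -0.67, and the unadjusted p was over 0.05 there and when either library 2 or library 3 of the HTG group was left out. With the replicate number as a block in edgeR, the unadjusted p was 0.0571.

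Gnmt methylates glycine to sarcosine and so uses up S-adenosylmethionine when it is plentiful. Its level was 1299, 1494 and 1590 CPM in the HFD libraries. In the HTG libraries it was measured at 731, 287 and 409 CPM. The HFD libraries lay close together, the HTG libraries were spread more widely, and the gap between the groups was wide. Gnmt had the largest difference of the 4 genes whose groups did not overlap, with a log2 fold change of -1.62 (standard error 0.35, 95% interval -2.41 to -0.82, unadjusted p = 0.00146, adjusted p = 0.0605 in edgeR). The fitted level was 3.07 times lower in the HTG group. The adjusted p in edgeR was 0.0414 without HTG library 1, and it was 0.107 to 0.192 with any other library left out.

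Ahcy splits S-adenosylhomocysteine into adenosine and homocysteine. It was measured at 2151, 2815 and 2056 CPM in the HFD libraries. In the HTG libraries it was measured at 1868, 1101 and 1009 CPM. HTG library 1 was just below the lowest HFD library, and the other HTG libraries were well below. Its log2 fold change was -0.82 (standard error 0.30, unadjusted p = 0.0248, adjusted p = 0.141 in edgeR), and the unadjusted p was over 0.05 when the libraries named for Mat1a were each left out. An intronless near copy, Ahcyl (chromosome 16, 45973348 to 45975440 as the table lists it), held 20.5% to 27.8% as many counts as Ahcy, so reads may have been split between the pair. Its own log2 fold change was -1.06 (adjusted p = 0.0948 in edgeR), with groups that did not overlap. For Ahcy summed with Ahcyl, an alternative not planned in advance, it was -0.87 (adjusted p = 0.133 in edgeR).

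Bhmt and Bhmt2 remethylate homocysteine, with betaine as the methyl donor of the former and S-methylmethionine that of the latter. Bhmt was measured at 3273, 802 and 4653 CPM in the HFD libraries. It was measured at 2397, 732 and 1719 CPM in the HTG libraries. Its level varied 5.80 times within the HFD group, where library 2 was low, and 3.28 times within the HTG group. The groups overlapped, and the log2 fold change was -0.85 (standard error 0.63, 95% interval -2.28 to 0.58, adjusted p = 0.437 in edgeR). Single libraries moved this value widely. It was -1.30 without HFD library 2, -0.34 without HFD library 3 and -0.50 without HTG library 2, and the adjusted p in edgeR was at least 0.194 with any library left out. The processed pseudogene Bhmt-ps1 held at most 0.82% as many counts as Bhmt.

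Bhmt2, the neighbour of Bhmt on chromosome 13, was measured at 174, 149 and 258 CPM in the HFD libraries. The HTG libraries held 185, 172 and 152 CPM. The groups overlapped, with HFD library 3 highest and HFD library 2 lowest. Its log2 fold change was -0.19 (standard error 0.24, 95% interval -0.74 to 0.36, adjusted p = 0.666 in edgeR). Its sign turned without HFD library 3 (0.069).

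Cbs joins homocysteine with serine to form cystathionine, the entry to transsulfuration. The HFD libraries held 346, 342 and 275 CPM. In the HTG libraries it was measured at 322, 211 and 245 CPM. The groups overlapped, since HTG library 1 lay above HFD library 3. Its log2 fold change was -0.31 (standard error 0.22, 95% interval -0.82 to 0.21, adjusted p = 0.431 in edgeR). Without HTG library 1 the unadjusted p was 0.0406, and without HTG library 2 the log2 fold change was -0.18.

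Cth cleaves cystathionine to cysteine, and it can also release hydrogen sulfide. Its row (chromosome 3, 157599885 to 157630714, minus strand, in a build the table does not name) held 33887, 43168 and 25893 counts in HFD libraries 1 to 3. It held 22401, 14470 and 7278 counts in HTG libraries 1 to 3. After scaling, these were 497, 647 and 360.5 CPM across the HFD group and 288, 148 and 155 CPM across the HTG group. All 3 HTG libraries were below all 3 HFD libraries, with HFD library 2 highest and HTG library 1 nearest to the HFD group. The log2 fold change was -1.35 (standard error 0.33, 95% interval -2.11 to -0.59, unadjusted p = 0.00336, adjusted p = 0.0663 in edgeR), a fitted level 2.55 times lower. Cth was under an unadjusted p of 0.05 with each library left out in turn. The adjusted p in edgeR was 0.0434 without HTG library 1, and it was 0.125 to 0.219 with any other library left out. The study drew Cth in a heatmap of lipid metabolic genes that it picked from these libraries, so its direction here is not independent evidence. The row Gm43314 lies inside Cth on the same strand, and reads of the pair cannot be told apart there.

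The ratio of Cth to Cbs in FPKM (the fragments of a gene scaled by its length and by the depth of the library) was 3.86, 5.08 and 3.51 across the HFD group and 2.40, 1.88 and 1.70 across the HTG group. The ratio of Gnmt to Mat1a was 0.981, 0.688 and 1.17 across the HFD group and 0.602, 0.504 and 0.542 across the HTG group. In both pairs every HTG ratio was below every HFD ratio. For each the exact permutation p was 0.1, the smallest that 3 against 3 allows, and 0.14 after adjustment over the 7 ratios computed. Csad to Cdo1 was lower without overlap too, whereas Ahcy to Ahcyl (2.78 ± 0.0912 in the HFD group and 3.36 ± 0.270 in the HTG group) and Bhmt to Bhmt-ps1 (32.5 ± 7.30 and 64.0 ± 13.9) were higher without overlap, each with an exact p of 0.1. Bhmt to Bhmt2 (exact p = 0.5) and Mat1a to Mat2a (exact p = 0.4) overlapped between the groups. The ratios were chosen after the values had been seen.

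Cdo1 oxidises cysteine to cysteine sulfinate. Its level was 1409, 1116 and 989 CPM in the HFD libraries. In the HTG libraries it was measured at 1576, 1157 and 856 CPM. The groups overlapped throughout their range, and the HTG group held both the highest and the lowest library. The log2 fold change was 0.03 (standard error 0.28, 95% interval -0.61 to 0.67, adjusted p = 0.962 in edgeR), and its sign turned on the FPKM scale, where limma gave -0.04. Its sign also turned without HFD library 2 (-0.0068), HFD library 3 (-0.082) or HTG library 1 (-0.26).

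Csad decarboxylates cysteine sulfinate to hypotaurine, the precursor of taurine. It was measured at 149, 552 and 97.1 CPM in the HFD libraries. In the HTG libraries it was measured at 142, 40.1 and 18.0 CPM. It varied most among the 9 genes within the HTG group, by 7.91 times, and varied 5.68 times within the HFD group. HTG library 1 lay inside the HFD range, so the groups overlapped. The log2 fold change was -1.99 (standard error 0.85, 95% interval -3.93 to -0.06, unadjusted p = 0.0449, adjusted p = 0.192 in edgeR). Without HFD library 2, which held the highest level, it was -0.88, and the unadjusted p was over 0.05, as it also was without HTG library 2 or HTG library 3. In DESeq2 the unadjusted p was 0.0771 on all rows and 0.0764 on the rows edgeR tested. The gene Zfp740 overlaps the 5′ start of Csad on the opposite strand, and whether strand was used in counting is not stated.

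Between genes, levels were compared in FPKM. In the HFD group Mat1a was highest (1283 ± 298 FPKM), followed by Gnmt (1170 ± 122), Ahcy (801 ± 93.8), Cdo1 (690 ± 147), Bhmt (499.6 ± 344), Cth (172 ± 41.1), Bhmt2 (76.4 ± 24.99), Csad (64.8 ± 57.1) and Cbs (41.4 ± 4.90), as mean ± standard deviation with n = 3. Of the neighbours in this order, the libraries of Gnmt and Ahcy did not overlap, nor did those of Cth and Bhmt2, and all other neighbours overlapped. In the HTG group the order was Cdo1 (686 ± 222 FPKM), Mat1a (654 ± 250.2), Ahcy (444 ± 159), Gnmt (367 ± 174), Bhmt (259 ± 130), Cth (66.1 ± 26.2), Bhmt2 (64.8 ± 9.60), Cbs (32.4 ± 6.70) and Csad (16.4 ± 16.1). There the libraries of Bhmt and Cth did not overlap, nor did those of Bhmt2 and Cbs. Gnmt thus stood just below Mat1a by mean in the HFD group and below Cdo1, Mat1a and Ahcy in the HTG group. By mean, Csad stood above Cbs in the HFD group through HFD library 2 alone (130.2 against 41.3 FPKM), and it was below Cbs in every other library. Among all rows ranked by mean FPKM, Cth was number 281 in the HFD group and number 598 in the HTG group.

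Over the 6 libraries, the genes outside the 9 whose log2 CPM followed Cth most closely were Slc48a1 (r = 0.999), Chmp3 (r = 0.999), Med28 (r = 0.998), Rab5if (r = 0.997) and Clip1 (r = 0.997), out of 14361 genes compared. The libraries fall into 2 groups, so these values describe the group difference as well as the spread within groups.

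The 9 genes were set beside 60 others of one-carbon and sulfur metabolism, of which 59 were tested. These lists were chosen with earlier results of these data known. Their counts, here and list by list below, are therefore a description and not independent evidence beside the shares of all genes. At an unadjusted p under 0.05, 16 were lower and 4 were higher in edgeR, against 12.4% and 12.3% of all tested genes. At an adjusted p under 0.1 in edgeR, 10 were lower and 2 were higher, against 5.43% and 5.41% of all tested genes, and 0 were called at an adjusted p under 0.05. Without HTG library 1 there were 17 at an adjusted p under 0.1, where 13.4% of all genes tested passed. With any other library left out, or with the replicate number as a block, there was at most 1. In those fits at most 2.15% of all genes passed, so these counts say little of the lists themselves. DESeq2 on all rows called 9 lower and 2 higher at an adjusted p under 0.05, against 5.81% and 4.65% of the genes it tested. On the rows edgeR tested it called 12 lower and 2 higher, against 7.55% and 6.29%. The median log2 fold change of the 59 was -0.23.

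Among 12 genes of remethylation and folate metabolism, 2 were lower at an adjusted p under 0.1 in edgeR and 0 were higher, where 5.43% and 5.41% of all tested genes were. Dmgdh, which oxidises the dimethylglycine that Bhmt releases, had 397 ± 86.0 CPM in the HFD group and 221 ± 53.2 in the HTG group (log2 fold change -0.85, edgeR adjusted p = 0.0991). Sardh, which returns the sarcosine made by Gnmt to glycine, had 845 ± 204 and 462 ± 121 CPM (log2 fold change -0.87, edgeR adjusted p = 0.104). Sardh missed that threshold, and the groups did not overlap for either gene. Mthfs, which recycles formyl folate, was higher in every HTG library than in any HFD library (log2 fold change 0.43, edgeR adjusted p = 0.139).

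Among 12 genes of S-adenosylmethionine synthesis and methyl transfer, 2 were lower at an adjusted p under 0.1 in edgeR and 0 were higher, beside the same shares of all tested genes. These were Mat2a, the form of the synthase found outside the liver and in growing hepatocytes (log2 fold change -0.61, edgeR adjusted p = 0.0823), and its regulatory partner Mat2b (-0.57, edgeR adjusted p = 0.0823). Among 10 genes of polyamine synthesis and methionine salvage, 1 was lower and 1 higher at that threshold, beside the same shares. Odc1, which makes putrescine, had a log2 fold change of -1.71 (edgeR adjusted p = 0.0612), and Mri1, an isomerase of the salvage pathway, one of 0.79 (edgeR adjusted p = 0.0613).

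Among 10 tested genes of cysteine, sulfide and taurine handling, 5 were lower at an adjusted p under 0.1 in edgeR and 0 were higher, against 5.43% and 5.41% of all tested genes. Got1, an aminotransferase that also takes cysteine sulfinate, had a log2 fold change of -1.53 (edgeR adjusted p = 0.0936). Suox, which oxidises sulfite to sulfate, had one of -1.37 (edgeR adjusted p = 0.0839), and Sqor, which oxidises sulfide in mitochondria, one of -0.71 (edgeR adjusted p = 0.0873). The taurine transporter Slc6a6 had one of -0.65 (edgeR adjusted p = 0.0796), and Ado, which oxidises cysteamine to hypotaurine, one of -0.58 (edgeR adjusted p = 0.0912). For all 5 genes the HTG libraries lay below the HFD libraries.

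Among 7 genes of glutathione synthesis, glutathione breakdown and cystine uptake, 0 passed an adjusted p of 0.1 in edgeR. At an unadjusted p under 0.05, 1 was lower (Slc7a11) and 1 higher (Chac2), where 12.4% of all tested genes were lower and 12.3% higher. Slc7a11 was barely detected, with 16 to 94 counts per library, against 1036 to 2838 for Chac2. Among 8 regulators tied to these genes in the literature, 1 was higher at an adjusted p under 0.1 in edgeR and 0 were lower, against 5.41% and 5.43% of all tested genes. This was Foxa2 (log2 fold change 0.91, edgeR adjusted p = 0.0948). Ppara had a log2 fold change of -0.80 (edgeR adjusted p = 0.178), with groups that overlapped.

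**Figure D2:**
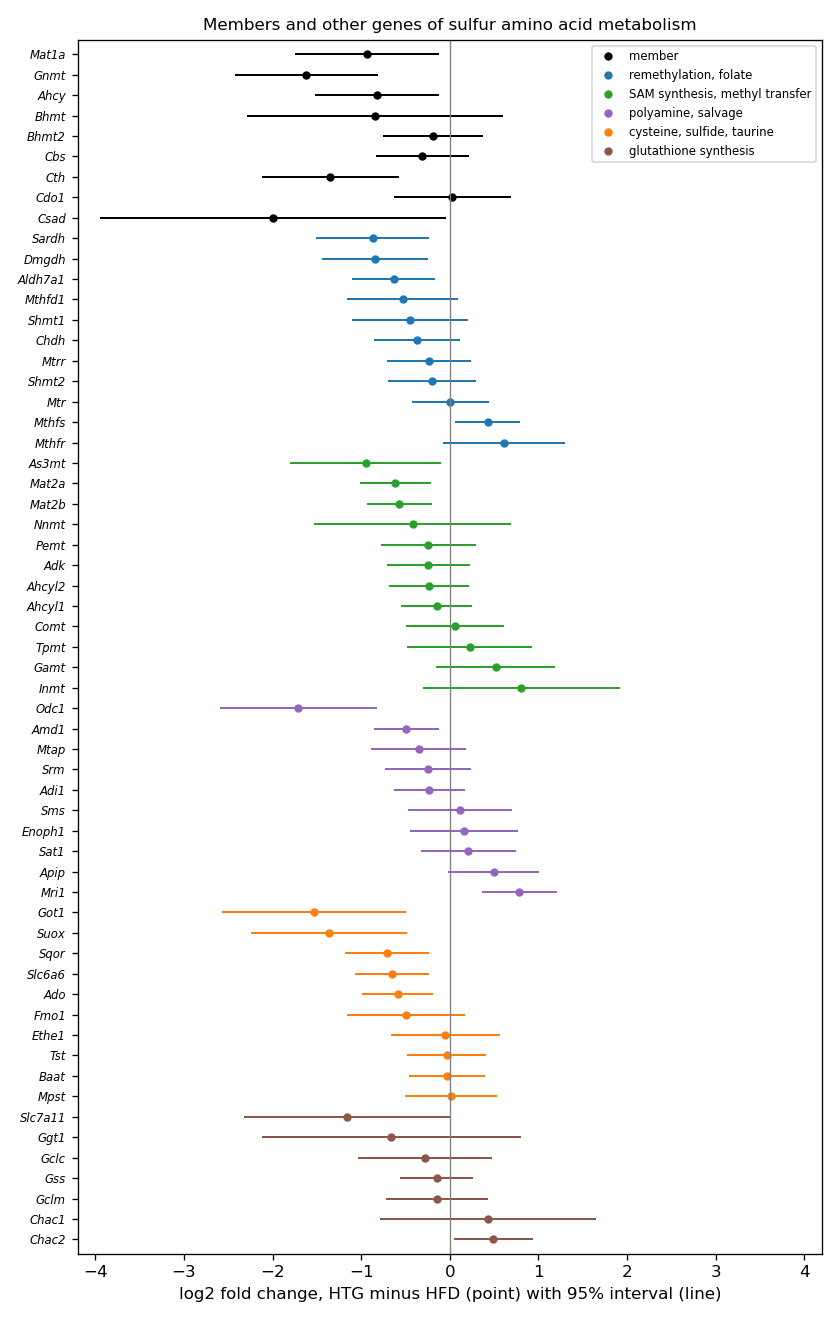
Log2 fold change (horizontal axis, HTG minus HFD) of the 9 genes, in black, and of the tested genes of 5 related lists except 1 gene not reported here, in colour. Points are edgeR estimates and lines their 95% intervals; the intervals of Cth (-2.11 to -0.59) and Gnmt (-2.41 to -0.82) lie below 0, and that of Cdo1 spans it.

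Other signals moved with the groups. The summed CPM of 6 hepatocyte markers was 75089, 85221 and 93547 across the HFD group and 67939, 67776 and 68201 across the HTG group. Alb made up most of this sum, and Cps1 (log2 fold change -1.62, edgeR adjusted p = 0.0568) and Apob (-1.05, edgeR adjusted p = 0.0838) were lower without overlap, with a list median of -0.51. That of 7 periportal markers, of which Ass1 was the most abundant by mean FPKM, was 7938, 7916 and 6642 across the HFD group. It was 4595, 3660 and 5110 across the HTG group, and Ass1 and Pck1 made up most of this sum in both groups. In the sums of both lists every HTG library was below every HFD library. That of 7 pericentral markers, led by Cyp2e1, was 11896, 13893 and 7586 across the HFD group and 9317, 5255 and 5783 across the HTG group, and the groups overlapped. Of its genes, Glul, Cyp1a2, Oat and Slc1a2 were lower at an adjusted p under 0.1 in edgeR without overlap, as was Ass1 of the periportal list, where 5.43% of all tested genes were lower at that threshold. Hal (0.13) and Sds (0.20) of the periportal list and Lgr5 (0.12) of the pericentral list had log2 fold changes above 0, with groups that overlapped. The lists were not tested against each other, and the median log2 fold changes of the pericentral and periportal lists were -0.98 and -0.50. Mitochondrially encoded mRNA took 6.31%, 4.82% and 5.18% of counts across the HFD group and 9.12%, 14.9% and 13.0% across the HTG group, without overlap and with HTG library 1 again nearest to the HFD group. The 7 Kupffer cell and macrophage markers, led by Cd5l, summed to 1053, 547 and 1020 CPM across the HFD group and 706, 658 and 393 CPM across the HTG group, which overlapped. All 7 had a fitted log2 fold change below 0, and Adgre1 was lower without overlap (-1.53, edgeR adjusted p = 0.0538). For the next lists, the most abundant gene by mean FPKM is given in brackets. The sums for cholangiocytes (Spp1), other leukocytes (S100a9), stellate cells (Dcn), sinusoidal endothelium (Clec4g) and red cells (Hbb-bs) also overlapped between the groups. Among their genes, Sox9 was higher without overlap (0.79, edgeR adjusted p = 0.0939), as was Des (0.68, edgeR adjusted p = 0.143) in a stellate list whose median was -0.19, and Epcam was lower without overlap (-0.95, edgeR adjusted p = 0.158). Of exocrine pancreas markers Cela3b, Ctrb1 and Pnlip were at 0 in every library, Prss2 had 3 counts in HFD library 1 and 0 in the others, and Cela1 was counted in every library (259 to 788 counts). Of adipocyte markers Adipoq was at 0 in every library, while Plin1 had 0 counts in each HFD library and 12, 7 and 4 in HTG libraries 1 to 3, and Cfd had 28 in HTG library 1 and 0 in the others. The part of these signals in the differences of the 9 genes was not tested.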

How the data were processed

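Liver RNA of 3 HFD and 3 HTG animals was analysed. The deposited values were an estimated count for every gene in each library, in whole numbers, and an FPKM value. The submitters' processing notes name HISAT2, StringTie and SAMtools, without versions, and the build mRatBN7.2, which does not match the mouse gene rows. Of 28284 values from 1 to 9, 6450 were 4 and 3333 were 8, and other values were common too. If 1 fragment gave about 4 counts, precision is lower than the counts imply. Counts were tested with edgeR 4.0.16 (TMM scaling, filterByExpr, quasi-likelihood test, group as the only term, Benjamini-Hochberg adjustment over 18455 rows) in R 4.3.3. DESeq2 1.42.0 and limma 3.58.1 on log2 FPKM were alternatives. DESeq2 was run first on all rows. It was later also put on the rows edgeR tested, after its counts of calls had been compared with earlier results of these data, and both versions are reported. The tests were checked on simulated data. The genes and lists were chosen with earlier results of these data known. All 9 genes were named, and of each list at most 6 with an unadjusted p under 0.05. For likeness to Cth, the 5 genes with the highest correlation of log2(CPM + 1) were named among those with a mean of at least 50 counts. No sequences were used here. Of the lists, 1 gene is counted and not reported here by name.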

Additional observations from a re-analysis of the deposited data

How the results depend on the processing

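All alternatives run for each gene kept the direction of Cth, Gnmt, Mat1a, Ahcy, Bhmt, Cbs and Csad. The summed level of the 9 genes kept its direction under the other scalings, without mitochondrial rows, as a sum of FPKM, with the replicate block and with each library left out, the alternatives run for it. The number of the 9 called at an adjusted p under 0.05 (0 in edgeR) was 4 in DESeq2 on all rows and 4 in DESeq2 on the rows edgeR tested, the latter chosen after seeing the data. It was 1 with at least 10 counts in every library, 1 with counts divided by 4, and 2 in limma on log2(FPKM + 0.1) and 2 on log2(FPKM + 1). With 1 library left out it was 0 to 2, the highest without HTG library 1. The number at an adjusted p under 0.1 (2 in edgeR) was 4 in DESeq2 on all rows, 4 in DESeq2 on the rows edgeR tested, and 4 and 4 in the limma fits. It was 0 in limma without a filter, and 0 to 5 with 1 library left out (5 without HTG library 1 and 0 without any other). Of all genes tested, 10.8% passed that threshold in the main edgeR fit. The share was 15.6% and 19.9% in the DESeq2 fits, 21.9% and 22.1% in the limma fits and 1.81% in limma without a filter. Without HTG library 1 it was 13.4%, and without any other library at most 2.15%. The number of the 9 at an unadjusted p under 0.05 (5) was 2 to 6 with 1 library left out (2 without HTG library 2 or 3, 3 without HFD library 2). It was 4 in DESeq2 on all rows and 4 on the rows edgeR tested, without Csad. With the replicate block it was 4, without Mat1a. Of the pathway lists, the number at an adjusted p under 0.1 (12) was 4 without a filter, where 4.38% of all genes passed. It was 1 in limma without a filter, and 0 to 17 with 1 library left out. It was 16 in DESeq2 on all rows and 17 in DESeq2 on the rows edgeR tested. With at least 10 counts, with counts divided by 4 and in each filtered limma fit it was 15. It was 10 to 14 with the other scalings or without mitochondrial rows. With the replicate number as a block (replicate block), 0 of the 9 and 0 of the pathway lists passed an adjusted p of 0.1, and 0 of all genes did. Deviations of libraries with the same number correlated at -0.165, -0.128 and 0.227, and those of libraries with different numbers at -0.219 to 0.335. With so few libraries these values cannot decide whether libraries of the same number share more than that number. The log2 fold change of Bhmt2 ran from -0.35 to 0.069 with 1 library left out. That of Cdo1 was -0.043, -0.043 and -0.043 in the 3 limma fits and ran from -0.26 to 0.23. Over all genes, the calls at an adjusted p under 0.05 (1 higher and 1 lower) were 929 and 1160 in DESeq2 on all rows, 1091 and 1310 in DESeq2 on the rows edgeR tested, 86 and 76 without a filter, 369 and 315 with at least 10 counts, 10 and 4 without mitochondrial rows, 459 and 363 with counts divided by 4, and 326 and 552 or 329 and 555 in limma, 0 and 0 in limma without a filter, 0 and 0 with the replicate block, and 234 and 419 without HTG library 1. Each symbol had 1 row, so summing the rows of a symbol changed nothing. The cause of these shifts was not tested.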

Other observations

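The table's KEGG annotation for cysteine and methionine metabolism, looked up after the data had been seen, held 49 genes, 7 of them among the 9, and 39 of the other 42 were tested. At an adjusted p under 0.1 in edgeR, 8 were lower and 3 were higher, against 5.43% and 5.41% of all tested genes, and the median log2 fold change of the 39 was -0.23. Mat2a, Mat2b, Got1, Ahcyl and Mri1 are among these and were already given above, so the count is not separate from those of the lists. The genes named here were chosen after their values were seen. Phgdh, the entry enzyme of serine synthesis, had 3.90 ± 2.83 CPM in the HFD group and 0.250 ± 0.129 CPM in the HTG group (mean ± standard deviation, log2 fold change -3.92, edgeR adjusted p = 0.0585). Psat1, the next enzyme of that path, had 3.56 ± 1.89 and 0.793 ± 0.229 CPM (log2 fold change -2.17, edgeR adjusted p = 0.0616). Serine is the partner of homocysteine in the reaction of Cbs. Tat, which degrades tyrosine, had 1818 ± 296 and 730.1 ± 326 CPM (log2 fold change -1.32, edgeR adjusted p = 0.0839). Kyat1, a transaminase, had 139 ± 40.6 and 344 ± 71.0 CPM and was higher (log2 fold change 1.31, edgeR adjusted p = 0.0605). For all 4 genes the groups did not overlap.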
